A study of Homo sapiens with 12 samples.

Results

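The platelet-derived growth factor (PDGF) family is described here by 6 genes of the 23705 in the count table. *PDGFA*, *PDGFB*, *PDGFC* and *PDGFD* encode the 4 ligands, and *PDGFRA* and *PDGFRB* encode the 2 receptors. The family was picked from these same libraries because *PDGFB* was lower with the PPARγ agonist rosiglitazone (RGZ), so the values of *PDGFB* with RGZ alone and with vehicle are given as a description with no test. The other 5 genes were taken by name as the rest of the family. All 6 genes passed the filter on low counts and are among the 13522 genes tested.

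PDGFs are secreted dimers that bind receptor tyrosine kinases at the cell surface. Ligand binding brings receptor chains together, the chains phosphorylate each other on tyrosines, and adaptor proteins and kinases that dock there pass the signal on to the RAS, PI3 kinase and phospholipase C pathways. PDGFs are known as growth factors of fibroblasts, pericytes and smooth muscle cells, and tumor cells that release them can act on the stroma around them, while melanoma cells can also carry PDGF receptors themselves.

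RNA was sequenced from A375 cells, an established line of human metastatic melanoma, after 24 h with DMSO as vehicle, with 5 μM RGZ, with T0070907, an antagonist of PPARγ, at 2 μM, or with 5 μM RGZ plus 2 μM T0070907, called the combination below. RGZ was the ligand whose response was measured, and the antagonist was used to see which responses to RGZ depend on access to the receptor. Each condition had 3 libraries, 1 from each of 3 independent experiments, in medium with serum, and the RNA of technical replicates had been pooled within an experiment. All 12 libraries come from 1 cell line grown without stromal cells, which limits them as a model of signals between tumor and stroma. Counts per library summed to 8319455 to 8687191 in vehicle, 9001174 to 10096418 in RGZ, 8524144 to 11375227 in T0070907 and 8426908 to 9471903 in the combination. Levels are in CPM, counts brought to a common library total with TMM factors from edgeR, and 3 counts, taken as the detection floor, corresponded to 0.258 to 0.371 CPM.

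The labelled cell type was checked against marker genes. Among 8 markers of the melanocytic lineage, *SOX10*, a transcription factor of neural crest derivatives, was the most abundant with 311 ± 109 CPM in vehicle (mean ± SD, n = 3), while *TYR* and *DCT*, enzymes of pigment synthesis, were at or under the floor in all 12 libraries. The summed level of the 8 markers was 374, 281 and 498 CPM in the vehicle libraries of experiments 1, 2 and 3, and 345, 229 and 422 CPM with RGZ. It was 415, 327 and 531 CPM with T0070907 and 387, 289 and 478 CPM with the combination. Most of this sum was *SOX10*, so it does not stand for the other markers of the list. In vehicle, *MITF* had a mean of 45.9 CPM, *S100B* 25.7 CPM and *PMEL* 1.13 CPM, and *MLANA* and *TYRP1* did not pass the filter on low counts. *AXL*, the most abundant of 4 markers of dedifferentiated melanoma, had 519 ± 62.9 CPM in vehicle (SD, n = 3). Of 5 platelet markers, *PF4*, *PPBP* and *GP9* were at or under the floor in every library.

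Per kb of the longest annotated transcript, the vehicle libraries held most *PDGFA* among the 6 genes, with 3.73 CPM per kb. *PDGFC* followed with 2.63, *PDGFRB* with 2.54, *PDGFB* with 1.77, *PDGFD* with 0.564 and *PDGFRA* with 0.226 CPM per kb. The ranges of the 3 vehicle libraries overlapped between *PDGFA* and *PDGFC*, between *PDGFC* and *PDGFRB*, and between *PDGFRB* and *PDGFB*. Within the same library, however, *PDGFA* was above *PDGFC* in 3 of 3 (ratios 1.52, 1.26 and 1.67) and *PDGFRB* above *PDGFB* in 3 of 3 (1.19, 1.57 and 1.58), while *PDGFC* was above *PDGFRB* in 2 of 3. *PDGFB* lay above *PDGFD*, and *PDGFD* above *PDGFRA*, with no overlap. All 6 genes were in the lower part of the tested genes, since 33.4% of those with a known length had a level per kb as low as or lower than *PDGFA*, and 1.83% as low as or lower than *PDGFRA*. The order depends on the transcript length used. With the median length of the annotated transcripts *PDGFRB* came first, with 20.4 CPM per kb, before *PDGFC* with 13.9, *PDGFA* with 8.62 and *PDGFB* with 7.36, and *PDGFRA* with 1.55 was above *PDGFD* with 0.601.

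**Figure D1:**
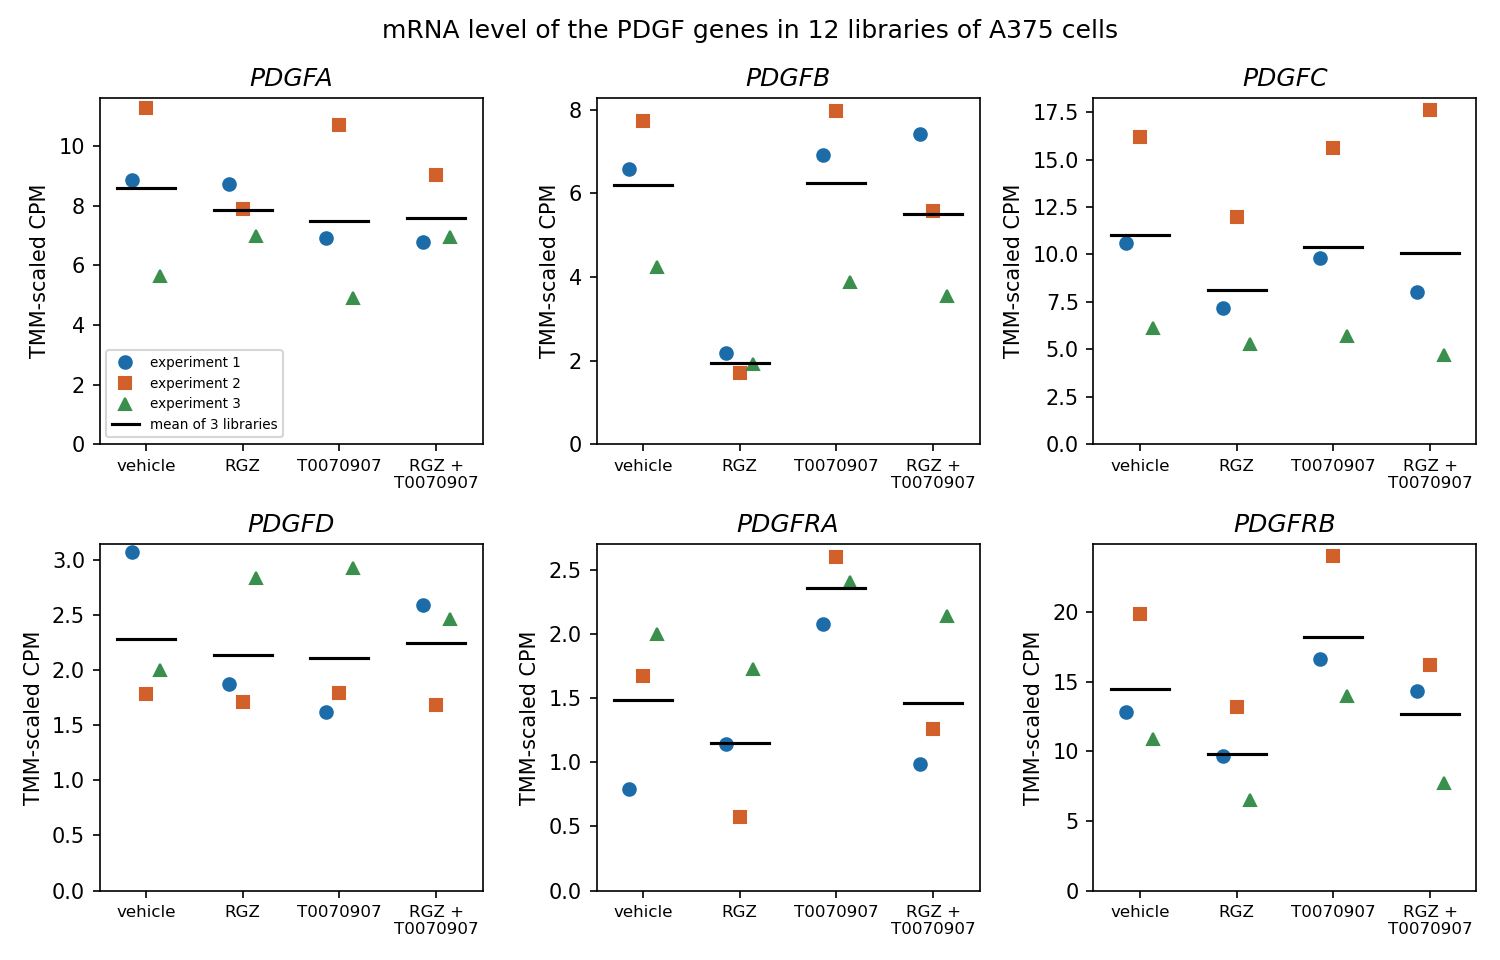
TMM-scaled CPM (y axis) of the 6 PDGF genes in each library, by condition (x axis). Symbols mark the experiment and lines the mean of 3 libraries. The 3 *PDGFB* values with RGZ, between 1.71 and 2.18 CPM, lie below all 9 others, and *PDGFRB* is highest in experiment 2 in all 4 conditions.

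*PDGFB* (NCBI gene 5155, chromosome 22) encodes the B chain, whose dimers bind both receptor types. It had 6.59, 7.73 and 4.24 CPM in the vehicle libraries of experiments 1, 2 and 3, and 2.18, 1.71 and 1.93 CPM with RGZ. It had 6.93, 7.97 and 3.88 CPM with T0070907 and 7.41, 5.57 and 3.54 CPM with the combination. The 3 RGZ libraries were the lowest of the 12 and did not overlap with any other condition, which is the pattern the gene was selected on. The vehicle, T0070907 and combination libraries overlapped, and experiment 3 was the lowest in each of these 3 conditions. These levels rest on 15 to 89 counts per library. In experiment 3 the exact 95% Clopper-Pearson intervals, which cover counting error only, ran from 1.16 to 3.01 CPM for RGZ and from 2.97 to 5.86 CPM for vehicle.

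As a description, the level of *PDGFB* with RGZ was 0.332, 0.221 and 0.455 times that with vehicle in experiments 1, 2 and 3, and the log2 fold change was -1.66. The log2 fold change was 1.49 for the combination against RGZ, 0.01 for T0070907 against vehicle and -0.17 for the combination against vehicle. None of these 4 values was tested, since each uses vehicle or RGZ libraries, and the last 2 changed sign when 1 library was left out (-0.21 to 0.27 and -0.44 to 0.07). The comparison that used neither was RGZ in the presence of the antagonist, the combination against T0070907. There the level of *PDGFB* was 1.07, 0.7 and 0.912 times that with T0070907 alone, lower in 2 of 3 experiments. The log2 fold change was -0.19 (standard error 0.32, 95% interval -0.88 to 0.51, edgeR adjusted p = 0.844), so no difference was detected, within these bounds. With the experiment as a term of the model, called the replicate block below, it was -0.20 with an interval of -0.57 to 0.18 (edgeR adjusted p = 0.507). An exact two-sided permutation test of the 3 against 3 levels, which ignored the pairing by experiment, gave p = 0.7. The smallest value that unpaired test allows is 0.1. The interaction of both compounds, the difference between the response to RGZ with and without the antagonist, was 1.48 on the log2 scale for *PDGFB* and is given with no test for the same reason.

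*PDGFA* (NCBI gene 5154) encodes the A chain, which dimerizes with itself or with the B chain and binds the α receptor. It had 8.86, 11.3 and 5.65 CPM with vehicle and 8.73, 7.88 and 7 CPM with RGZ. It had 6.93, 10.7 and 4.91 CPM with T0070907 and 6.79, 9.04 and 6.97 CPM with the combination. The 4 conditions overlapped, and experiment 2 held the highest value in 3 of them. RGZ against vehicle was at a log2 fold change of -0.13 (standard error 0.29, edgeR adjusted p = 0.918), with 2 of 3 experiments lower.

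*PDGFC* (NCBI gene 56034) encodes a ligand that is secreted with a CUB domain and becomes active after proteases remove it. It had 10.6, 16.2 and 6.12 CPM with vehicle and 7.17, 12 and 5.28 CPM with RGZ. It had 9.82, 15.6 and 5.69 CPM with T0070907 and 8.03, 17.6 and 4.71 CPM with the combination. Experiment 2 was the highest and experiment 3 the lowest in each condition, and the conditions overlapped widely. Within experiments, the level with RGZ was 0.679, 0.741 and 0.863 times that with vehicle, lower in 3 of 3. This did not pass the test, with a log2 fold change of -0.43 without the block (standard error 0.52, edgeR adjusted p = 0.825) and -0.42 with it (standard error 0.14, edgeR adjusted p = 0.079). Leaving out 1 library moved the value without the block between -0.81 and -0.04. With the antagonist present the ratios were 0.818, 1.13 and 0.829.

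*PDGFD* (NCBI gene 80310) encodes the other ligand with a CUB domain, which binds mainly the β receptor. Its level was between 1.62 and 3.07 CPM over the 12 libraries, on 14 to 34 counts. The ranges of the 4 conditions overlapped. RGZ against vehicle was at a log2 fold change of -0.09 (standard error 0.33, edgeR adjusted p = 0.951). Its 95% interval ran from -0.81 to 0.63, and from -0.68 to 0.48 with the replicate block, so changes within these bounds are not excluded.

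The ligand mRNAs were also set against each other within each library, as shares of their summed CPM per kb of the longest transcript. With the median length *PDGFC* and not *PDGFA* was the highest ligand in vehicle, so which ligand has the largest share depends on this choice. *PDGFB* made up 20.9%, 19.3% and 21.5% of this sum with vehicle and 9.46%, 6.79% and 9.92% with RGZ. In T0070907 libraries it made up 25.6%, 20.6% and 20.8%, and in combination libraries 27.8%, 15.7% and 17.5%. The share of *PDGFA* was 43 ± 0.496% with vehicle and 53.2 ± 5.17% with RGZ (SD, n = 3). Shares sum to a fixed total, so the higher share of *PDGFA* with RGZ goes with the lower share of *PDGFB*, which the choice of this family used, and neither was tested. In the libraries with T0070907, the mean share of *PDGFB* was 22.3% without RGZ and 20.3% with it (exact two-sided permutation p = 0.6). The summed ligand level was 9.02, 11.4 and 5.62 CPM per kb with vehicle and 6.6, 7.21 and 5.56 CPM per kb with RGZ. It was 7.75, 11.1 and 5.33 CPM per kb with T0070907 and 7.64, 10.2 and 5.77 CPM per kb with the combination.

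**Figure D2:**
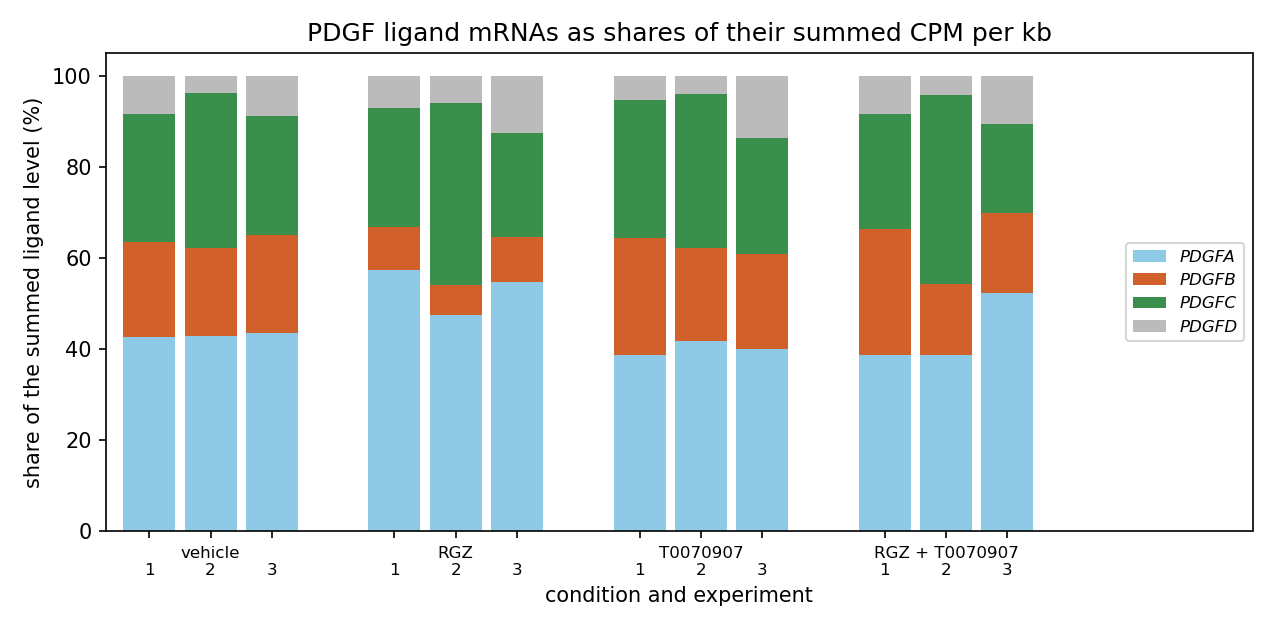
Share of each ligand mRNA (%, y axis) in the summed CPM per kb (longest transcript) of the 4 ligands, 1 bar per library, by condition and experiment (x axis). *PDGFB* takes 6.79% to 9.92% of the sum with RGZ and 15.7% to 27.8% in the other 9 libraries, and with this length *PDGFA* is the largest share in 11 of the 12 libraries.

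*PDGFRB* (NCBI gene 5159, chromosome 5) encodes the β receptor, which binds B and D chains. It had 12.8, 19.9 and 10.9 CPM in the vehicle libraries of experiments 1, 2 and 3, and 9.67, 13.2 and 6.5 CPM with RGZ. It had 16.6, 24 and 14 CPM with T0070907 and 14.3, 16.2 and 7.72 CPM with the combination. Experiment 2 was the highest and experiment 3 the lowest in each condition, and the ranges of the conditions overlapped. Within an experiment the order was clearer, since the level with RGZ was 0.754, 0.666 and 0.594 times that with vehicle, and the level with the combination was 0.861, 0.675 and 0.549 times that with T0070907.

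Without the replicate block neither response of *PDGFRB* to RGZ passed the test. The log2 fold change was -0.57 against vehicle (standard error 0.34, edgeR adjusted p = 0.602) and -0.52 for the combination against T0070907 (standard error 0.33, edgeR adjusted p = 0.489). Leaving out 1 library moved these values between -0.85 and -0.28 and between -0.73 and -0.26. With the block *PDGFRB* was lower in both comparisons. The log2 fold change was -0.57 for RGZ against vehicle (standard error 0.13, 95% interval -0.84 to -0.30, edgeR adjusted p = 0.00763). It was -0.53 for the combination against T0070907 (standard error 0.12, 95% interval -0.78 to -0.29, edgeR adjusted p = 0.0133). These comparisons share no library, and each was lower in 3 of 3 experiments. The interaction was 0.04 with the block (95% interval -0.33 to 0.41, edgeR adjusted p = 0.971), so that a difference between the response with and without the antagonist was not detected, within these bounds. When each library was left out in turn with the block, *PDGFRB* was called for RGZ against vehicle in 11 of 12 fits and for the combination against T0070907 in 10 of 12. Without vehicle replicate 3 the adjusted p was 0.0507 for RGZ against vehicle. For the combination against T0070907 the call was lost without T0070907 replicate 2 and without combination replicate 3, where the adjusted p was 0.0951. In bulk RNA, fewer cells with *PDGFRB* mRNA and less *PDGFRB* mRNA per cell cannot be told apart.

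**Figure D3:**
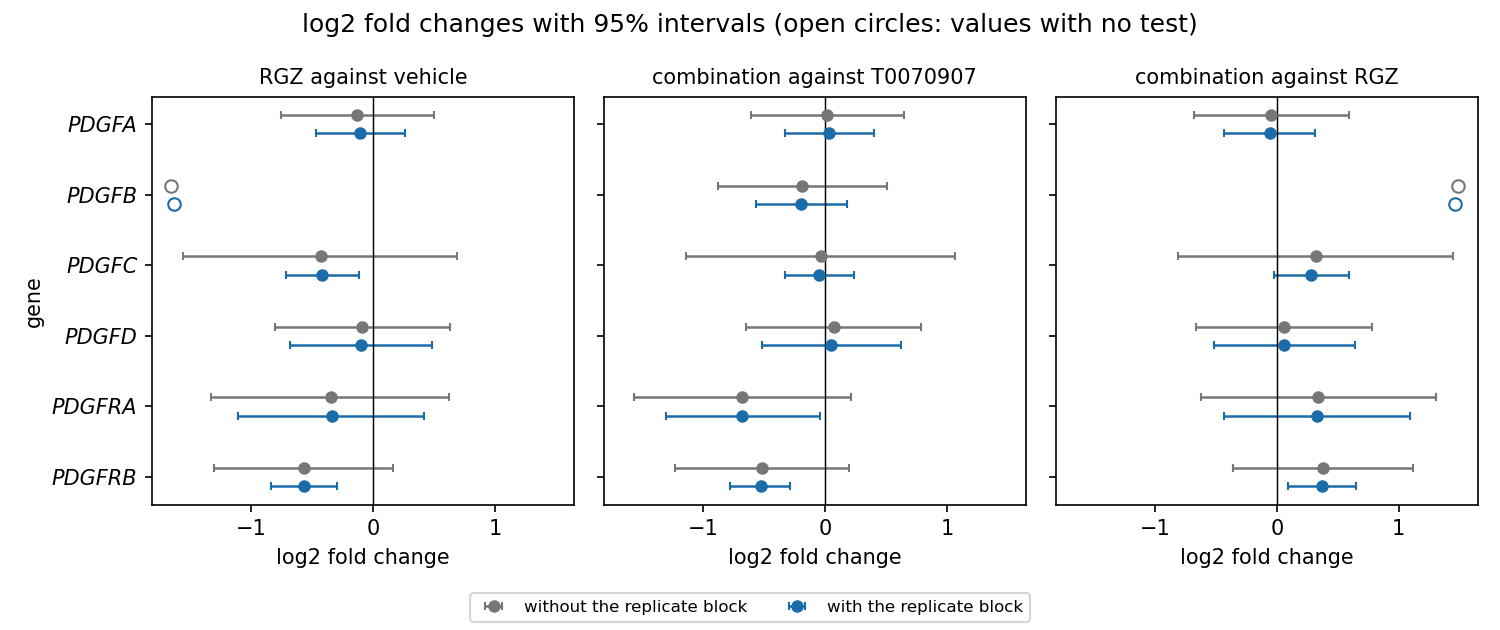
log2 fold changes (x axis) of the 6 PDGF genes (y axis) in 3 comparisons, without (grey) and with (blue) the replicate block. Bars are 95% intervals and open circles are *PDGFB* values with no test. With the block, the *PDGFRB* intervals lie below 0 for RGZ against vehicle (-0.84 to -0.30) and for the combination against T0070907 (-0.78 to -0.29).

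T0070907 alone gave 1.3, 1.21 and 1.28 times the vehicle level of *PDGFRB*. With the block its log2 fold change of 0.34 did not pass the test over all genes (standard error 0.12, edgeR adjusted p = 0.272). The combination against RGZ was at 0.37 with the block (standard error 0.13, edgeR adjusted p = 0.0782), higher in 3 of 3 experiments. Without the block, leaving out 1 library moved these values between 0.07 and 0.62 and between 0.15 and 0.66. Per kb of the longest transcript, the ratio of *PDGFB* to *PDGFRB* was 0.839, 0.636 and 0.633 with vehicle and 0.369, 0.211 and 0.485 with RGZ. In T0070907 libraries it was 0.681, 0.543 and 0.451, and in combination libraries 0.846, 0.563 and 0.749, with *PDGFB* below *PDGFRB* in all 12 libraries. With the median lengths the ratio is smaller, since the vehicle means were then 7.36 and 20.4 CPM per kb.

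*PDGFRA* (NCBI gene 5156) encodes the α receptor, which binds A, B and C chains. It had 0.795, 1.67 and 2 CPM with vehicle and 1.14, 0.571 and 1.73 CPM with RGZ. It had 2.08, 2.6 and 2.41 CPM with T0070907 and 0.988, 1.26 and 2.14 CPM with the combination. The T0070907 libraries lay above those of vehicle and of RGZ without overlap, while all other pairs of conditions overlapped, and the counts were between 5 and 29 per library. T0070907 against vehicle was at a log2 fold change of 0.67 (standard error 0.41, edgeR adjusted p = 1 without and 0.486 with the block). The exact two-sided permutation p, which ignored the pairing by experiment, was 0.1, the smallest that test allows. Against T0070907, the combination was at -0.68 (standard error 0.41, edgeR adjusted p = 0.46 without and 0.156 with the block), lower in 3 of 3 experiments. Leaving out 1 library moved these values between 0.37 and 0.95 and between -1.06 and -0.48. Exons of *PDGFRA* overlap those of *AC058822.1* on the same strand, so reads could belong to either, and exons of *PDGFD* overlap *DDI1* on the opposite strand, while it is not stated whether reads were counted by strand.

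The promoter of *PDGFRB* is shown because this receptor was the member called without having chosen the family. Of the 6 genes, *PDGFA*, *PDGFD*, *PDGFRA* and *PDGFRB* had an entry in the RefSeq promoter table (build GRCh38.p14), which makes 4, and *PDGFB* and *PDGFC* did not. The 223 bases at chr5:150155873-150156095 on the minus strand lie upstream of the annotated start of *PDGFRB*. The capitals mark matches to the GC box GGGCGG and to the CCAAT box, searched on both strands.
PDGFRB: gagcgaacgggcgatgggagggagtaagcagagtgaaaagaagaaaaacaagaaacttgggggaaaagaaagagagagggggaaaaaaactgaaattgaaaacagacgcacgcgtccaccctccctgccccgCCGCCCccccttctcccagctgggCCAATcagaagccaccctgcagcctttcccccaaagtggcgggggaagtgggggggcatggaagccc
Each of these motifs had 1 match. In windows of 223 bases from 35116 promoters, GGGCGG was found in 39.3% and CCAAT in 30.1%. The hexamer AGGTCA that nuclear receptors bind had 0 matches here and was found in 11% of the promoters, and TATAAA had 0 matches and was found in 8.25%. Only exact matches within these 223 bases were searched, so sites elsewhere or with other bases were not looked for.

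The members' calls are read against all tested genes. Without the block, edgeR called 167 of 13522 genes for RGZ against vehicle, or 1.24% (0.947% higher and 0.288% lower), and 0 of the 5 members other than *PDGFB*. It called 1 gene (0.0074%) for T0070907 against vehicle, 0 (0%) for the combination against vehicle, 167 (1.24%) for the combination against RGZ, with 0.311% higher and 0.924% lower, 5 (0.037%) for the combination against T0070907 and 0 (0%) for the interaction. None of the 5 members was called in any of these 6 comparisons by edgeR without the block, DESeq2 or limma-voom, and 0 of them had an unadjusted edgeR p-value under 0.05. At that unadjusted p-value were 1421 of all tested genes for RGZ against vehicle and 419 for T0070907 against vehicle. The combination against RGZ had 1773 and the combination against T0070907 had 2028. For the combination against vehicle 1438 were under it, where DESeq2 and limma-voom called 0. For the interaction 406 were under it, where edgeR called 0 after adjustment, DESeq2 called 1 and limma-voom 0.

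With the block, 9.3% of the tested genes were called for RGZ against vehicle (4.95% higher and 4.35% lower), and 1 of the 5 members, *PDGFRB*, was lower. In the combination against T0070907, 8.76% of genes were called (4.55% higher and 4.22% lower), and again 1 of 5, *PDGFRB*, was lower. For the combination against RGZ, 11.4% of genes were called (5.55% higher and 5.88% lower) and 0 of the 5 members, with 1 at an unadjusted p-value under 0.05, as had 3455 of all tested genes. T0070907 against vehicle called 0.91% of genes and 0 of 5 members, with 2 at that unadjusted p-value, as had 1328 of all tested genes. The combination against vehicle called 0% of genes, with 2868 at that unadjusted p-value, and the interaction 0.281%, and both called 0 of 5 members, with 0 at that unadjusted p-value. The median log2 fold change of the 5 members for RGZ against vehicle was -0.35 without the block, against -0.01 for all tested genes. This median is the value of *PDGFRA*, which leaving out 1 library moved between -0.77 and -0.04. For the combination against T0070907 the median of the 5 was -0.03, and for the combination against RGZ 0.32.

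A test of the experiment terms of the blocked model, added after the data were seen, called 30.5% of all tested genes, and *PDGFA*, *PDGFC* and *PDGFRB* were among them. For *PDGFC* the mean level was 8.9, 15.3 and 5.45 CPM in experiments 1, 2 and 3 (edgeR adjusted p = 9.8e-08), and for *PDGFRB* it was 13.4, 18.3 and 9.8 CPM (edgeR adjusted p = 1.04e-05). *PDGFA* had 7.83, 9.72 and 6.13 CPM (edgeR adjusted p = 0.00695). *PDGFD* (2.29, 1.74 and 2.56 CPM) and *PDGFRA* (1.25, 1.52 and 2.07 CPM) were not called, with adjusted p = 0.173 and 0.152. *PDGFB* had 5.78, 5.75 and 3.39 CPM. Markers of other cell types were summed as well. The level of 7 fibroblast and mural cell markers, led by *COL1A1*, was 22.1, 45 and 22.1 CPM with vehicle and 20.4, 32.2 and 16.2 CPM with RGZ. It was 26.5, 46.5 and 26.2 CPM with T0070907 and 23.7, 37.8 and 20.4 CPM with the combination. The summed level of 5 endothelial markers, led by *TIE1*, was 8.63, 13 and 5.41 CPM in vehicle and 11.3, 16.3 and 6.09 CPM in RGZ libraries. For T0070907 it was 7.28, 12.4 and 4.14 CPM, and 7.66, 10.6 and 4.93 CPM when both were given. Most of this sum was *TIE1*, with a mean of 6.86 CPM in vehicle and 9.62 CPM in RGZ libraries, so it does not stand for the other markers of the list, and with the block RGZ against vehicle called 0 of its 2 tested genes. Of the fibroblast sum, *COL1A1* alone had 9.88, 27.4 and 5.53 CPM in the vehicle libraries. With the block, 1 of 5 tested fibroblast and mural markers, *COL1A1*, was called lower in the same comparisons as *PDGFRB* and the other 4 were not called, with *COL1A1* at -0.76 for RGZ against vehicle (edgeR adjusted p = 0.000672) and -0.55 for the combination against T0070907 (edgeR adjusted p = 0.0125). In RGZ against vehicle with the block, 2 of 4 tested melanocytic markers were also lower, *S100B* (-1.02, edgeR adjusted p = 3.73e-05) and *MITF* (-0.34, edgeR adjusted p = 0.00997). So were 2 of 4 markers of dedifferentiated melanoma, *NGFR* (-1.18, edgeR adjusted p = 0.000101) and *AXL* (-0.22, edgeR adjusted p = 0.0434). Of all tested genes 4.35% were lower there. In the combination against T0070907, 0 of 4 in either list were called. Of the 12 fibroblast and endothelial markers none was at or under the floor in every library, and the part of any marker in the *PDGFRB* result was not tested.

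Genes with a pattern like each member were sought among the 13184 other tested genes whose mean level reached 1 CPM, as the 3 highest Pearson correlations of log2 CPM over the 12 libraries after the mean of each experiment was subtracted. These values are descriptions, and the points share experiments and conditions. For *PDGFB* they were *CBX7* (r = 0.976), *C5orf58* (0.974) and *MC1R* (0.974). For *PDGFRB* they were *WWP2* (0.97), *SLC6A10P* (0.968) and *TFAP2A* (0.964). For *PDGFRA* they were *LBX2-AS1* (0.94), *INPPL1* (0.926) and *TMEM38A* (0.92), and for *PDGFC* *IFT70A* (0.933), *TRIM4* (0.925) and *SERPINB1* (0.923). *PDGFA* was most like *HCFC2* (0.89), *H3-5* (0.878) and *SNORD22* (0.838), and *PDGFD* most like *HENMT1* (0.878), *RPSA2* (0.864) and *SERPINA1* (0.854). Without subtracting the experiment means all 18 correlations were lower, from -0.37 for *SLC6A10P* with *PDGFRB* to 0.929 for *TFAP2A* with *PDGFRB*.

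The wider PDGF pathway and related families were covered by 86 genes in 6 lists, of which 75 were tested. These lists include 9 VEGF genes and 7 genes of other class III receptors and ligands, so shares of the 75 are not shares of the PDGF pathway alone. Without the block 2 of the 75 (2.67%) were called for RGZ against vehicle, beside 1.24% of all tested genes. Both are transcription factors of the immediate early response. *MYC* had 21.1, 18.8 and 18.1 CPM with vehicle and 36, 36.2 and 29.5 CPM with RGZ (log2 fold change 0.81, standard error 0.11, edgeR adjusted p = 0.00461). *FOSL1* rose by 0.45 on the log2 scale (standard error 0.10, edgeR adjusted p = 0.0427), a call lost when only the groups compared were fitted (adjusted p = 0.0601). Between the combination and RGZ, 3 of 75 (4%) were called, beside 1.24% of all tested genes. These were *MYC* (-0.68, edgeR adjusted p = 0.0119) and *JUN* (-1.17, edgeR adjusted p = 0.0444) lower and the chemokine *CCL2* (1.39, edgeR adjusted p = 0.0144) higher. With only the groups compared, *MYC* and *CCL2* were not called there (adjusted p = 0.0797 and 0.0833). When each library was left out in turn, *JUN* kept its call there in 4 of 12 fits, *MYC* in 9 and *CCL2* in 8. For RGZ against vehicle, *FOSL1* kept its call in 3 of 12 fits and *MYC* in 12. For T0070907 against vehicle, the combination against vehicle, the combination against T0070907 and the interaction, 0 of 75 were called without the block. With it 21.3% of the 75 were called for RGZ against vehicle (8% higher and 13.3% lower), 17.3% for the combination against RGZ (8% higher and 9.33% lower) and 12% for the combination against T0070907, all lower. These shares stand beside 9.3%, 11.4% and 8.76% of all tested genes.

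With the block, 4.95% of all tested genes were higher and 4.35% lower for RGZ against vehicle, and 4.22% were lower for the combination against T0070907. The counts by list stand beside these shares, and no list was tested as a set. By list with the block, receptor signalling held 3 of 26 tested genes lower with RGZ. They were *PLCG1* (log2 fold change -0.29, edgeR adjusted p = 0.00297), *SRC* (-0.31, 0.00399) and *STAT3* (-0.31, 0.00463). The list also held 5 lower for the combination against T0070907. Those 5 were *PIK3R1*, a regulatory subunit of PI3 kinase (-0.49, edgeR adjusted p = 0.00848), *PLCG1*, *STAT3*, *CRKL* and, named after its values were seen, *PTPN11*. Receptor dampening held 2 of 14 lower with RGZ, the Sprouty gene *SPRY1* (-0.95, edgeR adjusted p = 0.00289) and the phosphatase gene *PTPRJ* (-0.28, edgeR adjusted p = 0.007). It also held 2 lower for the combination against T0070907, *PTPRJ* (-0.28, edgeR adjusted p = 0.0153) and *SPRY4* (-0.23, edgeR adjusted p = 0.0333). Ligand processing and co-receptors held 1 of 10, *LRP1*, an endocytic receptor that binds PDGF receptor β, lower with RGZ (-0.31, edgeR adjusted p = 0.0462) and for the combination against T0070907 (-0.34, edgeR adjusted p = 0.0319). Immediate early genes held 4 of 14 higher and 2 lower with RGZ, and *JUN* (1.00, edgeR adjusted p = 1.96e-05) and *DUSP1* (0.59, edgeR adjusted p = 0.00352) were among those that rose. The lower ones were *CCL2* (-1.04, edgeR adjusted p = 0.0114) and, named after its values were seen, *DUSP6* (-0.18, edgeR adjusted p = 0.0403). The related VEGF genes held 2 of 7 higher, *PGF* (0.79, edgeR adjusted p = 0.00503) and *NRP2* (0.52, edgeR adjusted p = 0.000966), and 2 lower, the receptor genes *FLT1* (-1.12, edgeR adjusted p = 9.88e-06) and *KDR* (-0.93, edgeR adjusted p = 0.0118). *FLT1* was lower for the combination against T0070907 as well (-0.63, edgeR adjusted p = 0.00274). Without the block, leaving out 1 library moved the values for RGZ against vehicle between -1.61 and -0.64 for *FLT1*, -1.77 and -0.48 for *KDR*, -1.31 and -0.55 for *SPRY1*, 0.19 and 0.94 for *DUSP1*, and -0.59 and -0.04 for *LRP1*. For the combination against T0070907 they moved between -1.21 and -0.06 for *FLT1* and between -0.65 and -0.33 for *PIK3R1*. In that comparison *LRP1* (-0.81 to 0.07) and *SPRY4* (-0.61 to 0.12) changed sign when 1 library was left out. Of the other class III receptors and their ligands 0 of 4 tested genes were called. The median log2 fold change for RGZ against vehicle without the block was -0.06 over the 75 genes and -0.01 over all tested genes.

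**Figure D4:**
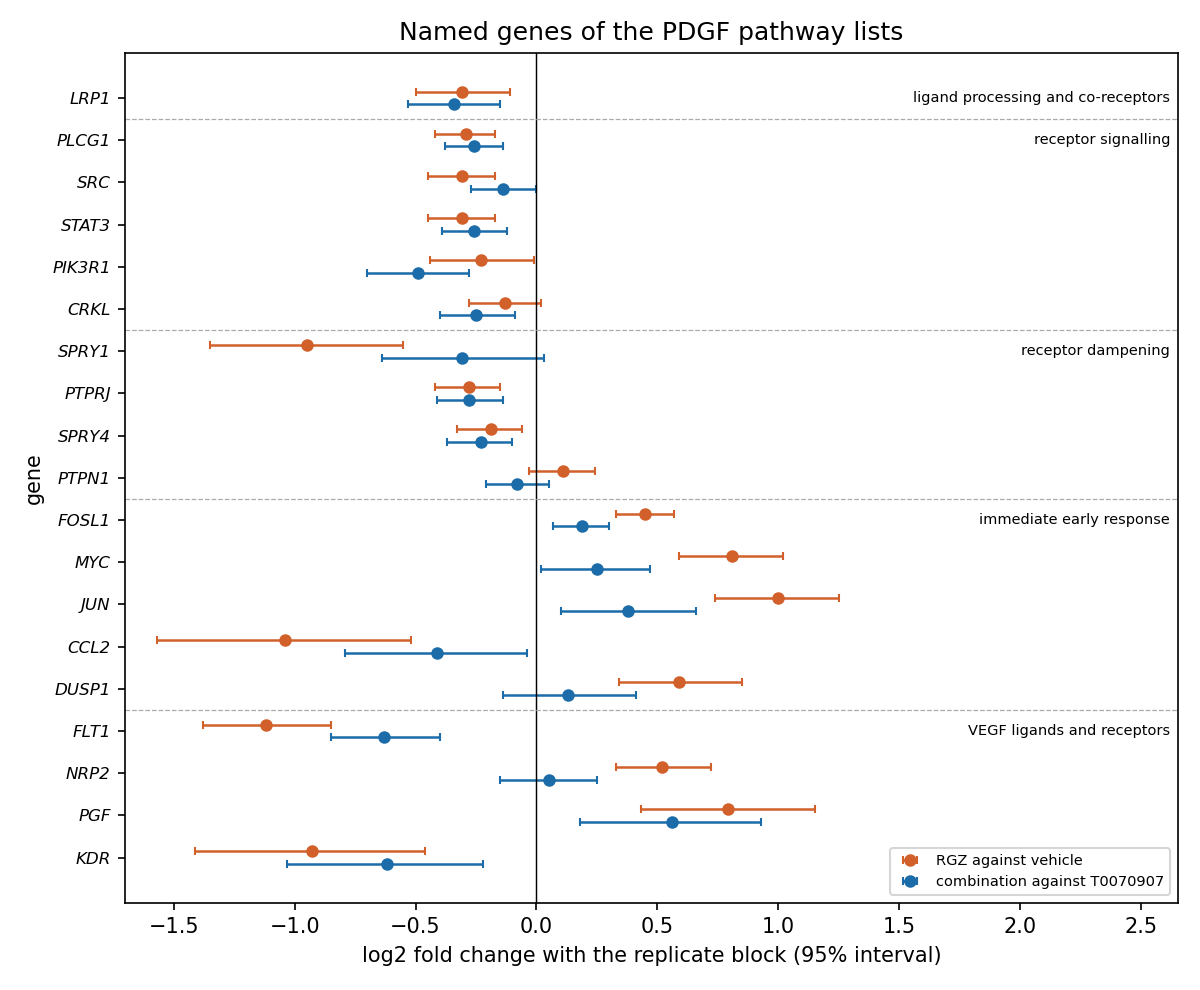
log2 fold changes with the replicate block (x axis, bars are 95% intervals) of the named genes of 5 lists of PDGF pathway and related VEGF genes (y axis), for RGZ against vehicle and for the combination against T0070907. *PLCG1*, *STAT3*, *PTPRJ* and *LRP1* lie below 0 in both, and *MYC*, *FOSL1* and *JUN* lie above 0. For the combination against T0070907, *MYC*, *FOSL1* and *JUN* were not called (edgeR adjusted p = 0.139, 0.0502 and 0.0754).

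Of 5 genes known to respond to PPARγ, 5 were called higher with RGZ without the block. T0070907 against vehicle called 0 of the 5 without the block and 3 lower with it. *PLIN2*, a lipid droplet protein, had 386 ± 19.9 CPM in vehicle and 2370 ± 242 CPM in RGZ libraries (SD, n = 3 each). With T0070907 it had 176 ± 3.73 CPM, and 518 ± 196 CPM when RGZ was added to it. For the combination against T0070907, where *PDGFB* was at -0.19, *PLIN2* was at 1.55 (standard error 0.20, edgeR adjusted p = 0.0166). This call was lost when only the groups compared were fitted, where 0 genes were called. *PDK4* was at 2.05 and *CPT1A* at 0.66 in that comparison, with adjusted p = 0.214 and 0.117 without the block and 0.000441 and 0.000327 with it. *ANGPTL4* was at 4.92 there (edgeR adjusted p = 0.108 without the block and 0.000149 with it). *FABP4* had 1 count in each vehicle library and between 1648 and 3513 with RGZ.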

How the data were processed

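The authors deposited raw counts of reads per gene, without normalization, for 23705 genes by NCBI gene number, of which 23538 matched a symbol in the RefSeq gene table. Per the submitters' processing notes the genome build was hg19, and the aligner, the annotation and the use of strand are not given in the sources used here. The table held 0 columns of other samples. Libraries were prepared with the TruSeq RNA protocol. The analysis ran in R 4.3.3, and tests used edgeR 4.0.16 (TMM scaling, filterByExpr, quasi-likelihood test of 4 groups over 12 libraries, Benjamini-Hochberg adjustment over 13522 genes, calls at an adjusted p under 0.05). Standard errors are approximate, being the size of the log2 fold change divided by the square root of F, and 95% intervals use the residual and prior degrees of freedom. Alternatives used DESeq2 1.42.0, limma 3.58.1, other filters, only the groups compared, and each library left out. Transcript lengths came from the longest GENCODE v29 transcript, known for 98.4% of tested genes, and promoters from RefSeq. Exact permutation tests were two-sided and shuffled libraries without regard to the experiment. Intervals and floors cover counting error only where they are given for a level. The fits were tried on simulated data.

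The titles of the samples carry the number of the experiment, and the series design states that the 3 experiments each held the conditions, so the pairing of libraries as a replicate block rests on the labels. Over 18 pairs of libraries from 1 experiment, deviations from condition means correlated at 0.554 on average, from 0.0793 to 0.758, so the lowest pair was under 0.1. Between experiments the mean was -0.27. The common dispersion was 0.0193 without the block and 0.00333 with it. The 12 pairs of libraries within a condition differed by chi-square values of 5.15 to 14.9 per degree of freedom, beyond sampling noise.

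The members and lists were chosen with earlier results of these data known. Named were the 6 members, list genes called without the block, then genes called with it up to 5 a list by the smallest blocked p for RGZ, 5 controls, the most abundant and undetected markers, and the 3 genes most like each member. The lists were ligand processing and co-receptors (12 genes), receptor signalling (27), receptor dampening (16), immediate early response (15), VEGF ligands and receptors (9), other class III receptors and ligands (7), and markers.

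The test of the experiment terms, the alternatives for *PDGFRB* with the block and those for the named pathway genes were added after the data were seen.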

Additional observations from a re-analysis of the deposited data

Results flagged for a closer look

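In 3 genes of the pathway lists, all 3 experiments went one way with RGZ against vehicle and all 3 went the opposite way with the combination against T0070907. The interaction on the log2 scale was -0.18 for *FURIN*, a protease that processes PDGF precursors (standard error 0.14, edgeR adjusted p = 1). It was 0.16 for the Sprouty gene *SPRY2* (standard error 0.47, edgeR adjusted p = 1) and 0.31 for *IER3* (standard error 0.36, edgeR adjusted p = 1). With the replicate block the adjusted p was 0.517, 0.559 and 0.216, so the difference did not pass the test in either model for these genes. Some of these directions rest on small differences, such as 108 CPM in both T0070907 and combination libraries of experiment 2 for *SPRY2*. Groups of 3 libraries give little basis for flagging a single outlying library, and fits that left out each library in turn are given below. The interaction of *PDGFB* was not tested, because its response to RGZ chose the family.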

How the results depend on the processing

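The direction and call of every member other than *PDGFRB* were the same with DESeq2's size factors, DESeq2, the replicate block, other filters and only the groups compared, and with limma-voom except that *PDGFRA* for the combination against vehicle moved from -0.01 to 0.02 and *PDGFB*, with no test, for T0070907 against vehicle from 0.01 to -0.03. *PDGFRA* has no value under the filter of at least 10 counts in every library. The replicate block changed the call of *PDGFRB* for RGZ against vehicle and for the combination against T0070907, and of no other member.

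Counts of called genes moved more. For RGZ against vehicle 167 became 299 with DESeq2, 1258 with the replicate block and 69 with only the groups compared. For T0070907 against vehicle 1 became 21 with DESeq2, 0 with limma-voom, 123 with the replicate block, 3 with no filter and 0 with at least 10 counts in every library. For the combination against RGZ 167 became 309 with DESeq2, 1545 with the replicate block and 41 with only the groups compared. For the combination against T0070907 5 became 79 with DESeq2, 1185 with the replicate block, 10 with no filter and 0 with only the groups compared. For the interaction 0 became 1 with DESeq2 and 38 with the replicate block. Of the called genes, 76.6% were higher with RGZ without the replicate block and 53.3% with it, 25.1% and 48.5% for the combination against RGZ, and 100% and 51.9% for the combination against T0070907. Called pathway genes were 16, 13 and 9 with the replicate block for RGZ against vehicle, the combination against RGZ and the combination against T0070907. The cause was not tested.

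Leaving out 1 library at a time, 45 to 168 genes were called for RGZ against vehicle, 0 to 5 for T0070907 against vehicle, 53 to 148 for the combination against RGZ, 0 to 14 for the combination against T0070907 and 0 to 1 for the interaction. *PDGFB* ranged from -0.45 to 0.05 for the combination against T0070907 and, with no test, from -0.21 to 0.27 for T0070907 against vehicle and from -0.44 to 0.07 for the combination against vehicle. With the replicate block, *PDGFRB* ranged from -0.66 to -0.53 for RGZ against vehicle and from -0.67 to -0.44 for the combination against T0070907. These fits were added after the data were seen, as were DESeq2 and limma-voom with the block, which gave adjusted p = 0.0199 and 0.0082 for RGZ against vehicle and 0.0255 and 0.0173 for the combination against T0070907. Without the block, these log2 fold changes crossed 0. *PDGFA* ranged from -0.36 to 0.12 for RGZ against vehicle, -0.55 to 0.05 for T0070907 against vehicle, -0.40 to 0.07 for the combination against vehicle, -0.19 to 0.03 for the combination against RGZ, -0.22 to 0.37 for the combination against T0070907 and -0.09 to 0.50 for the interaction. *PDGFC* ranged from -0.51 to 0.31 for T0070907 against vehicle, -0.79 to 0.28 for the combination against vehicle, -0.36 to 0.70 for the combination against RGZ, -0.71 to 0.40 for the combination against T0070907 and -0.28 to 0.83 for the interaction. *PDGFD* ranged from -0.35 to 0.18 for RGZ against vehicle, -0.42 to 0.17 for T0070907 against vehicle, -0.18 to 0.24 for the combination against vehicle, -0.08 to 0.32 for the combination against RGZ, -0.08 to 0.39 for the combination against T0070907 and -0.11 to 0.48 for the interaction. *PDGFRA* ranged from -0.39 to 0.27 for the combination against vehicle, -0.03 to 0.76 for the combination against RGZ and -0.71 to 0.09 for the interaction. *PDGFRB* ranged from -0.41 to 0.10 for the combination against vehicle and -0.23 to 0.33 for the interaction. *DUSP1* ranged from -0.03 to 0.30 for the combination against T0070907. *LRP1* ranged from -0.37 to 0.40 for the combination against RGZ and -0.81 to 0.07 for the combination against T0070907. *NRP2* ranged from -0.11 to 0.17 for the combination against T0070907. *PIK3R1* ranged from -0.45 to 0.05 for RGZ against vehicle and -0.22 to 0.10 for the combination against RGZ. *SPRY4* ranged from -0.56 to 0.16 for RGZ against vehicle, -0.25 to 0.50 for the combination against RGZ and -0.61 to 0.12 for the combination against T0070907. The cause was not tested. Of the pathway calls without the block, *MYC* with RGZ kept its call in 12 of 12 fits, *FOSL1* in 3 of 12, and for the combination against RGZ *MYC* in 9, *CCL2* in 8 and *JUN* in 4.

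With 3 libraries per condition and 5 to 29 counts for *PDGFRA*, 14 to 34 for *PDGFD* and 15 to 89 for *PDGFB*, these low counts limit what could be detected for these genes.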
